A study of Mus musculus with 6 samples.

Results

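Id and E proteins form one regulatory circuit of helix-loop-helix factors. The E proteins, encoded by Tcf3 (E2A), Tcf4 (E2-2) and Tcf12 (HEB), pair through the helix-loop-helix domain and bind the E-box, CANNTG. Id proteins have the pairing domain but lack the basic region that touches DNA, so they hold E proteins in pairs that do not bind. Id2 is required for innate lymphoid cells, which arise from precursors that also could become T or B cells, and Id3 has overlapping functions in lymphocytes. Accessibility in and around Id1, Id2, Id3, Tcf3, Tcf4 and Tcf12 was read here from ATAC-seq, an assay of open DNA based on insertions by the transposase Tn5. Of 57203 counted regions, 43 belonged to these 6 genes, because they overlapped the protein-coding gene or, overlapping none, lay nearest to it within 100 kb. Id1 had 2 regions, Id2 had 10, Id3 had 6, Tcf3 had 3, Tcf4 had 8 and Tcf12 had 14. Of the 43, 23 overlapped the gene and 20 lay away from it, and nearness does not show which gene a region acts on.

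The cells were group 2 innate lymphoid cells (ILC2s), lung lymphocytes that make type 2 cytokines, obtained by sorting Lin-CD25+ST2+ cells. All mice were wild-type, and the labels give females as the default and name no exception. Naive cells came from mice given PBS for 3 days, and effector cells from mice given papain, a protease allergen, at 30 µg per day for 3 days. Memory cells came from mice that had the same papain course by the intranasal route and then rested for 2 months, so memory mice differed from the others in time since treatment as well. There were 2 libraries per group, each from about 50000 cells pooled from 2 to 4 mice, and no library from untreated mice of the memory age was used here. Library totals ran from 11995095 to 20591102 counts in the regions. All 14 ILC2 marker genes listed had a region, among them Gata3, Rora and Il1rl1, and so did 5 of 8 B cell, 7 of 8 T cell, 6 of 9 myeloid and 4 of 6 mast cell and basophil marker genes. Only a few of the latter genes had a well covered region. Medians over libraries of the most covered region were 84.5 CPM for Cd3d, 49.3 for Fcgr1, 96.1 for Kit and 77.4 for Mitf. Other T cell genes with a region ran from 0.856 to 15.5 CPM and other myeloid genes from 0.129 to 22.8. Other mast cell and basophil genes with a region lay at 27.3 CPM or below, and B cell genes at 9.7 or below. Cd8a, Lyz2, Csf1r and Adgre1 had no region. In a bulk sample, fewer cells with an open region and less opening per cell cannot be told apart.

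At the starts of the genes, or at the regions used in their place, no difference between the 3 states passed the test. The regions compared covered the RefSeq start of Id2, Id3 and Tcf3, and 2 of the 3 RefSeq starts of Tcf12. The other Tcf12 start, inside the gene, lay in no region. For Id1 and Tcf4, whose strand was not available, the overlapping region with the most counts was used. That of Id1 covered the gene's lower-coordinate end. That of Tcf4 lay just inside the lower end, centred 1.57 kb above it. Levels are TMM-scaled CPM, that is counts relative to library size, and only levels per kb of region compare genes. In naive libraries the Id2 region held 54.6 and 61.6 CPM per kb and the Tcf3 region 42.5 and 47.3. Tcf4 followed at 19.7 in both libraries, Id3 at 18.1 and 15.6, Id1 at 15.5 and 12.7, and Tcf12 at 10.0 and 9.9. Id2 therefore stood highest and Tcf12 lowest, and Id3 and Id1, neighbours in this order, differed by about as much as the libraries within either gene. In effector libraries Tcf4 at 16.7 and 14.4, Id3 at 13.1 and 14.6 and Id1 at 15.1 and 12.5 overlapped. In memory libraries the order by mean was the naive one, with Id2 at 67.3 and 65.0 and Tcf12 at 6.81 and 9.74 CPM per kb.

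**Figure D1:**
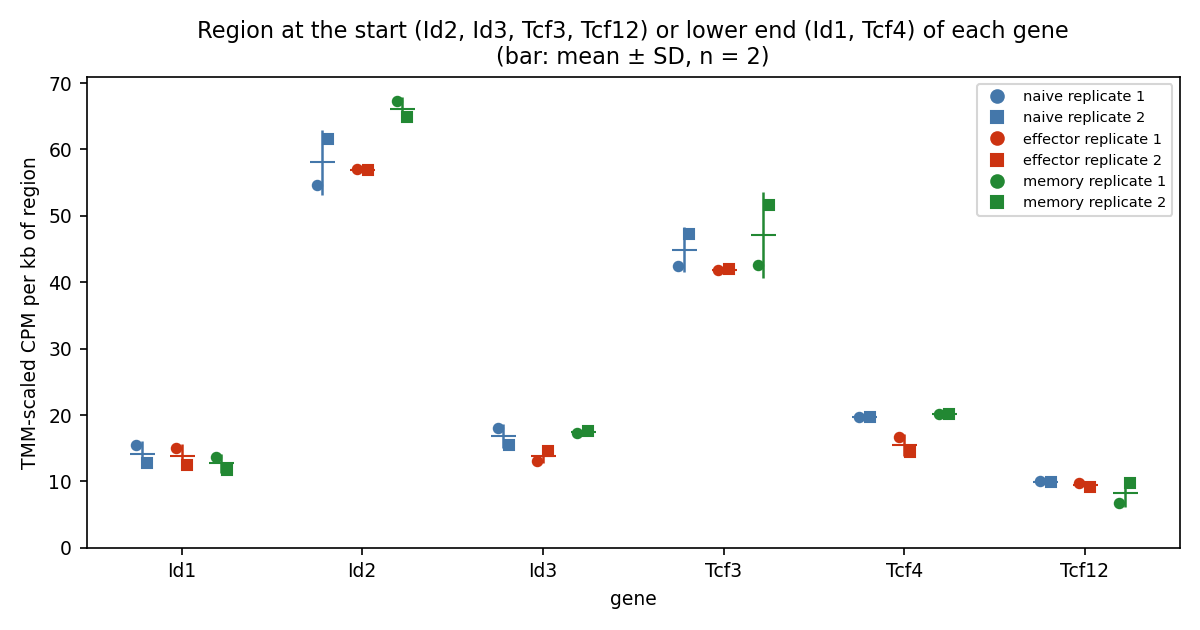
TMM-scaled CPM per kb, on a linear axis from 0, for the region at the start or near the lower end of each gene. Points are libraries and bars the mean ± SD (n = 2). Id2 and Tcf3 sit above 40 in all 6 libraries, and the other genes at 20.2 or below.

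None of these 6 regions was called in any comparison by edgeR's quasi-likelihood test with p-values adjusted by the Benjamini-Hochberg method for 56007 tested regions and a limit of 0.05. The Id2 start (chr12:25095289-25096878 of mm10) had 86.8 and 97.8 CPM in naive, 90.6 and 90.4 in effector and 107 and 103 in memory libraries. The memory libraries were the highest, yet the fitted log2 difference of memory minus naive was 0.19 (edgeR adjusted p = 0.682). The Id3 start (chr4:136143240-136145028) had 32.3 and 27.8 CPM in naive, 23.5 and 26.2 in effector and 30.9 and 31.5 in memory libraries. Both effector libraries lay below the other 4, with a log2 difference from naive of −0.27 ± 0.16 (SE, edgeR adjusted p = 0.255). The Tcf3 start (chr10:80433144-80434495) had 57.4 and 63.9, 56.5 and 56.7, and 57.5 and 69.8 CPM in the same order, with naive and memory libraries overlapping and effector libraries just below. The region over Id1 (chr2:152734865-152737028) had 33.5 and 27.5, 32.6 and 27.1, and 29.7 and 25.4 CPM, with all groups overlapping.

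RefSeq windows of 250 bases before to 50 bases after a start were matched for Id2, Id3, Tcf3 and Tcf12 (GRCm38.p6, the mm10 build). The 250 bases upstream of the Id genes are printed 5′ to 3′ because they lie in the start regions just described, with E-boxes (CANNTG, either strand) in capitals. Id2 is chr12:25096093-25096342 on the minus strand and Id3 is chr4:136143572-136143821 on the plus strand.
Id2: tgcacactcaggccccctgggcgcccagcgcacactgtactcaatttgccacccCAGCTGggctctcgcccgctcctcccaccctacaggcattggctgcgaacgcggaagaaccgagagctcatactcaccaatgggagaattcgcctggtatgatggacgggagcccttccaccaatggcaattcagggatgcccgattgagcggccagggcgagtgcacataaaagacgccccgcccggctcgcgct
Id3: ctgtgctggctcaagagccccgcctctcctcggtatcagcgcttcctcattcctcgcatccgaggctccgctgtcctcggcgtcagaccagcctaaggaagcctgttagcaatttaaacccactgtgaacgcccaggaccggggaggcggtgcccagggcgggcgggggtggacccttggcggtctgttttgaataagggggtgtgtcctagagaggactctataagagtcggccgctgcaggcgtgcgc

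The Id2 window of 300 bases held 1 E-box, with the letters CAGCTG, and the Id3 window held 0. CANNTG was present in 72.3% of all 32851 windows of that length and CAGCTG, which is a form of CANNTG, in 16.3%. The Tcf3 window held 1 E-box (CACTTG) and the 3 Tcf12 windows 1 (CAGCTG), 2 (CAAGTG and CACTTG) and 1 (CATGTG). A letter match is a description of the sequence and says nothing of binding. Guanine and cytosine made up 63.3% of the Id2 window and 60% of the Id3 window, against a median of 52.7% over all windows.

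Away from the starts, papain was followed by more accessibility at regions of Id3, Id2 and Tcf12. Of the 40 member regions that passed the filter on low counts, 10 rose from naive to effector and 0 fell by edgeR's quasi-likelihood test, and 13 had an unadjusted p under 0.05, beside 29.9% of all regions. DESeq2 called 5 higher. Over all tested regions 11.5% were called higher and 4.98% lower, so the members' share of gains was above the background and no test of that difference was made. The median log2 difference of the members was 0.12, against 0.00 over all regions. With all regions ordered by mean count in 5 equal classes, 7 of the 10 gains lay in the 2 lowest. Over all regions, 17.0% of the lowest class, 14.3% of the next and 2.80% of the highest were called higher.

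**Figure D2:**
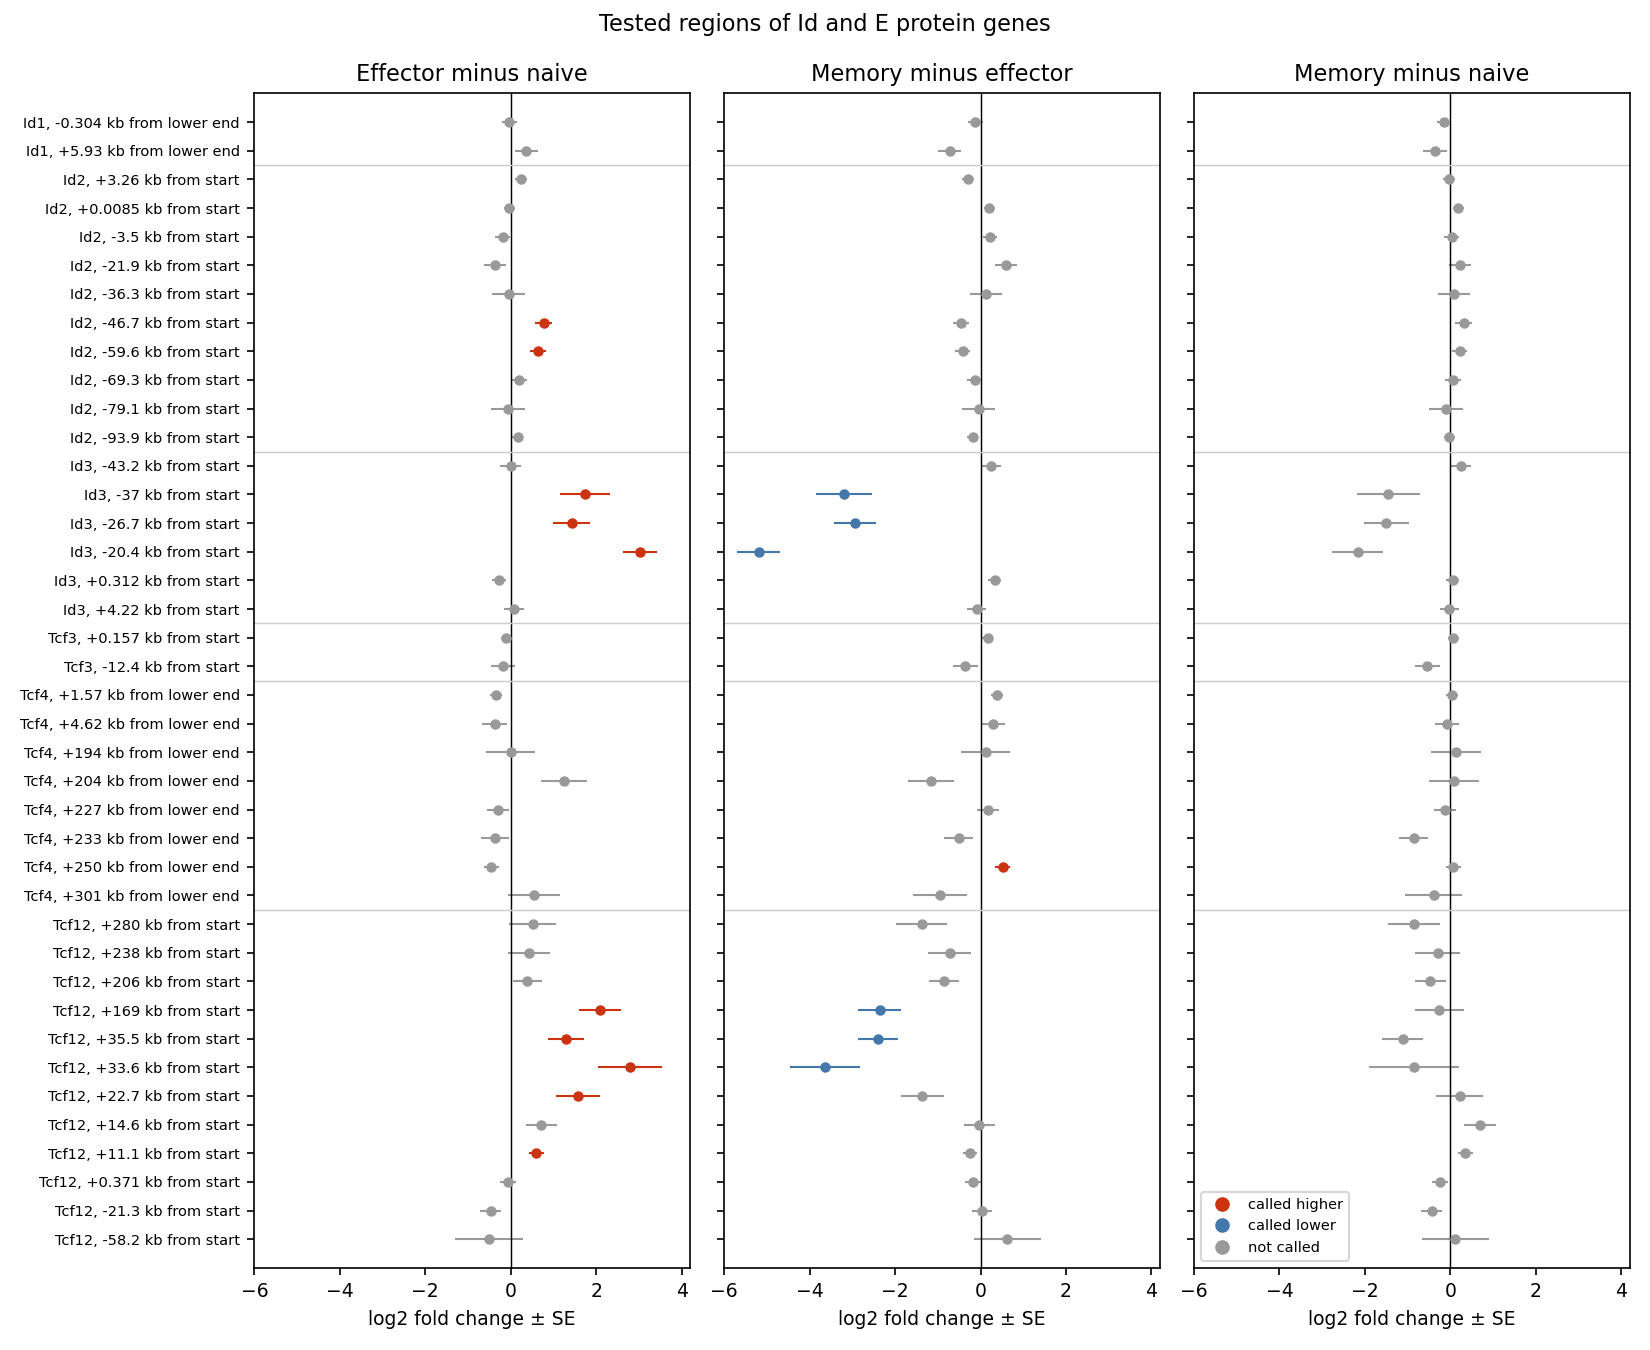
Log2 fold change ± SE of the 40 tested regions, in a panel per comparison, labelled by gene and by the distance of the region's centre from the gene's start or lower end (negative is upstream of the start or below the lower end). Called gains are red and called losses blue, and the Id3 region 20.4 kb upstream has the lowest value of memory minus effector, −5.19.

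Id3, an Id protein, had the largest change, in a stretch upstream of its start. The region 20.4 kb upstream (chr4:136122836-136124039) had 0.8 and 0.939 CPM in naive, 8.05 and 6.3 in effector and 0.176 and 0.197 in memory libraries, from 10, 16, 124, 110, 2 and 4 counts. Effector libraries lay far above the others and memory libraries lowest, with no overlap among groups. The effector minus naive log2 difference was 3.02 ± 0.40 (edgeR adjusted p = 9.21e-05), and memory minus effector was −5.19 ± 0.50 (edgeR adjusted p = 1.2e-05). Both calls held in 15 of 15 alternative fits.

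The neighbouring regions moved the same way at lower counts. The region 26.7 kb upstream (chr4:136116488-136117693) had 1.3 CPM in both naive libraries, 3.96 and 3.03 in effector and 0.529 and 0.394 in memory libraries. The region 37.0 kb upstream (chr4:136106461-136107114) had 0.96 and 0.587, 1.75 and 3.32, and 0.0881 and 0.394 CPM, from 12, 10, 27, 58, 1 and 8 counts. Groups did not overlap in either region. Effector minus naive was 1.43 ± 0.43 at 26.7 kb and 1.74 ± 0.58 at 37.0 kb on the log2 scale (edgeR adjusted p = 0.0303 and 0.0487). Memory minus effector was −2.94 ± 0.49 and −3.19 ± 0.66 (edgeR adjusted p = 0.000577 and 0.00274). The gains were weak calls. Without effector 1, effector 2, naive 1 or naive 2 the edgeR adjusted p was 0.251, 0.0678, 0.123 and 0.114 at 26.7 kb and 0.0907, 0.4, 0.0825 and 0.213 at 37.0 kb, with DESeq2 it was 0.0972 and 0.138, and with a loess offset on abundance 0.105 and 0.202. The loss at 37.0 kb from effector to memory had an edgeR adjusted p of 0.0569 without effector 2.

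The remaining regions of Id3 did not follow. The region 43.2 kb upstream (chr4:136099783-136101386) had 10.1 and 12.7 CPM in naive, 8.89 and 14.0 in effector and 12.5 and 14.6 in memory libraries, and the region 4.22 kb downstream of the start (chr4:136147597-136148494) had 14.6 and 12.4, 16.2 and 12.1, and 10.8 and 15.5. All groups overlapped in both. The next protein-coding gene from the 3 changing regions was Rpl11, a ribosomal protein gene, at 53.1 kb from the farthest of them, or E2f2, a cell cycle factor gene, at 54.6 and 48.2 kb from the others.

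**Figure D3:**
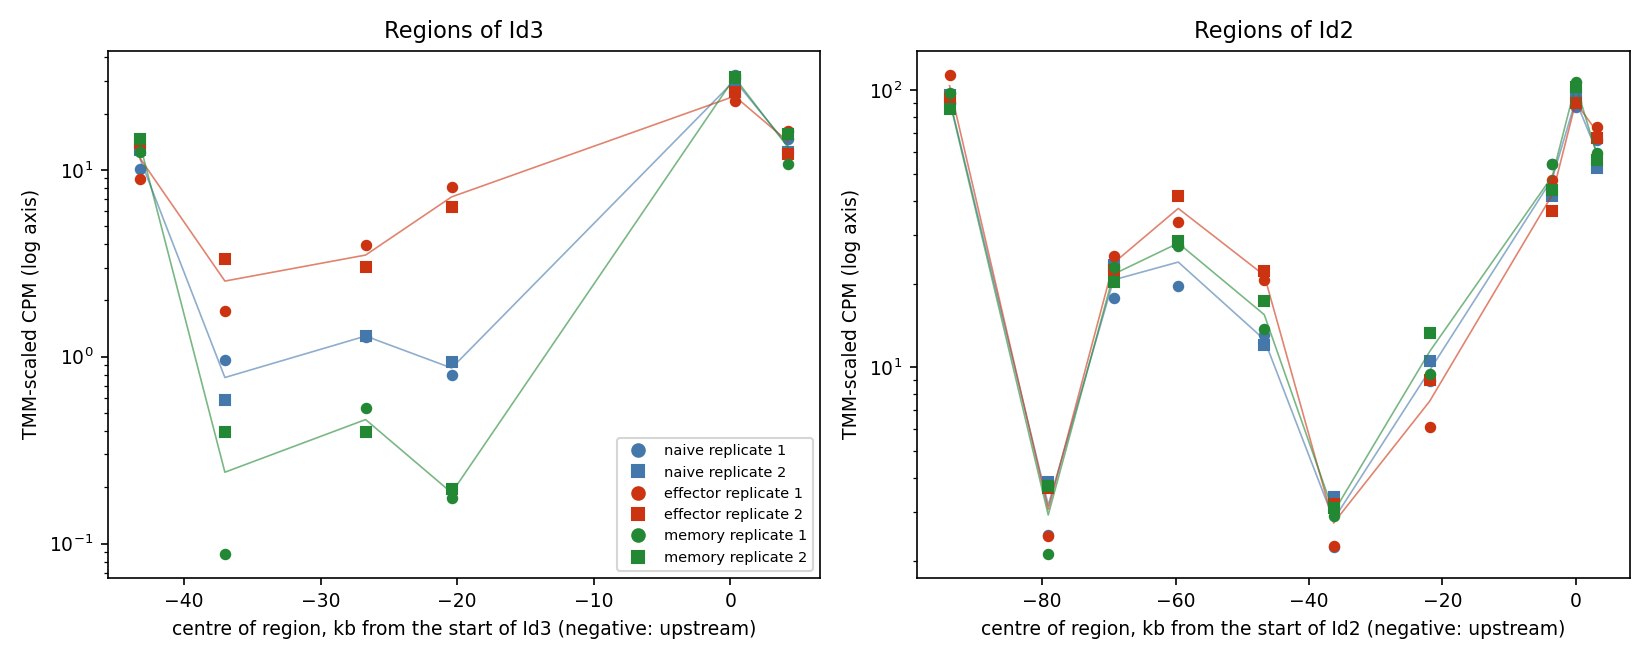
TMM-scaled CPM (log axis) of every region of Id3 and Id2 against the distance of its centre from the gene's start in kb, with points for libraries and lines joining group means. At Id3 the groups part between 37.0 and 20.4 kb upstream. At its start the effector points lie lowest by a small margin that was not called. At Id2 the effector points lie highest at 46.7 and 59.6 kb upstream.

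Within-library shares, which no scaling of libraries alters, describe the same regions. The 3 upstream regions held 5.06% (Wilson 95% interval 3.71 to 6.87) and 5.05% (3.83 to 6.64) of the Id3 counts in naive libraries. They held 22.1% (19.6 to 24.8) and 19.5% (17.3 to 21.9) in effector libraries. In memory libraries they held 1.44% (0.759 to 2.71) and 1.57% (1.02 to 2.41). The intervals of the groups did not overlap, but they cover counting error only, and the 3 regions were picked for their change. Each region was also set against the summed counts of Id3 in an edgeR test per region within its gene, chosen after seeing the data. The regions 20.4 and 37.0 kb upstream rose from naive to effector by 2.88 and 1.60 more than the gene on the log2 scale (edgeR adjusted p = 6.48e-06 and 0.0311). The region 26.7 kb upstream, at 1.30 more than the gene, was not called (edgeR adjusted p = 0.0532). In that test 9.86% of 47690 regions were called above their gene.

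**Figure D4:**
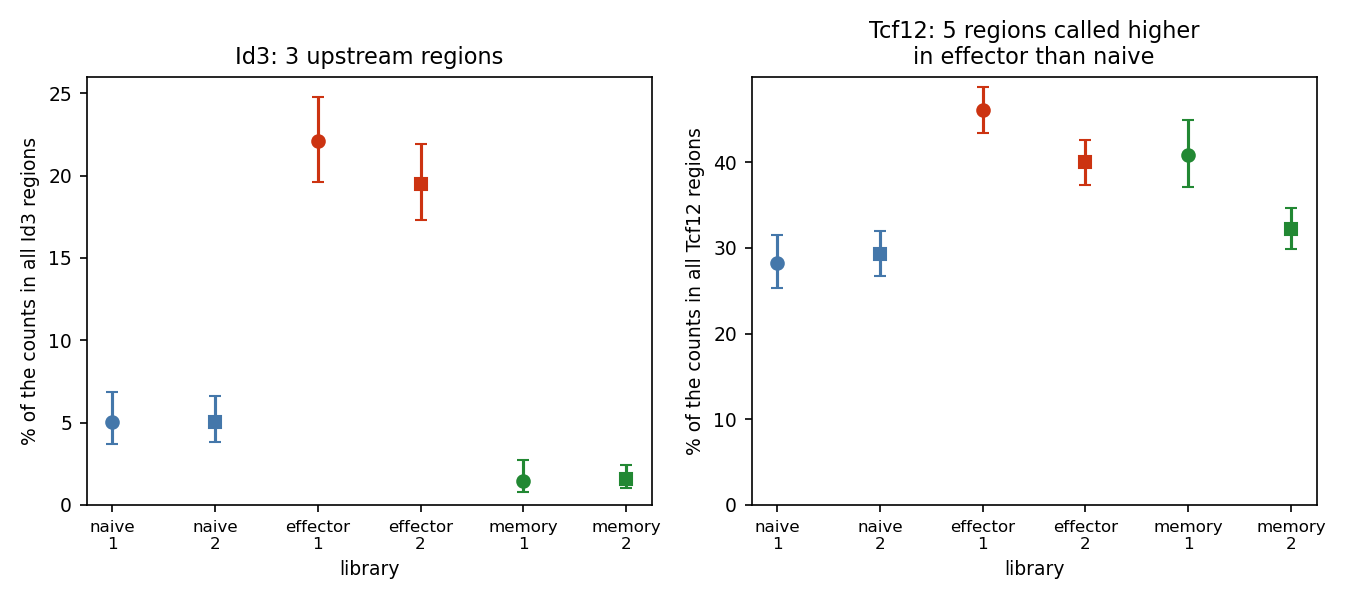
Percent of a gene's counts that fell in 3 regions upstream of Id3 (left) and in 5 regions of Tcf12 (right), for each library, with Wilson 95% intervals as bars. The Id3 share is 22.1 and 19.5% in effector libraries and 1.57% or less in memory libraries, and the Tcf12 share of memory 1 lies among the effector values.

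The summed level of B cell marker genes was also highest in effector and lowest in memory libraries, and so was that of lung epithelium and stroma. The latter was 154 to 160 CPM in naive, 163 to 167 in effector and 142 to 153 in memory libraries. No other marker list kept this order without overlap. Of 8 listed B cell genes 5 had a region, and those without one included Cd79a and Ms4a1. The sum was 41.3 to 42.3 CPM in naive, 58.7 to 60.7 in effector and 31.7 to 36.0 in memory libraries. Of 15 tested regions, 3 were called higher in effector than naive, beside 11.5% of all regions, and they belonged to Blnk and Pax5. In each of these genes the region with the smallest adjusted p was not called without effector 1. That of Pax5 was also not called with DESeq2 or with a loess offset on abundance. For plasmacytoid dendritic cells, where 8 of 10 genes had a region and Siglech and Ly6d had none, the sums were 528 to 568, 669 to 707 and 568 to 608 CPM. The part of other cells in the Id3, Id2 and Tcf12 values was not tested.

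Id2, the Id protein that innate lymphoid cells require, gained accessibility at a pair of upstream regions. Both overlap the long noncoding RNA gene Gm36287. So do the regions 69.3, 79.1 and 93.9 kb upstream, which were called in no comparison. The region 46.7 kb upstream (chr12:25141386-25144134) had 13.1 and 12 CPM in naive, 20.6 and 22.3 in effector and 13.7 and 17.3 in memory libraries. The region 59.6 kb upstream (chr12:25155057-25156250) had 19.6 and 28.4, 33.4 and 41.7, and 27.5 and 28.7 CPM. Effector libraries were above all others in both regions, and naive and memory libraries overlapped at 59.6 kb only. Effector minus naive was 0.77 ± 0.19 and 0.64 ± 0.18 on the log2 scale (edgeR adjusted p = 0.0108 and 0.0225). Memory minus effector was −0.46 and −0.42 and was not called (edgeR adjusted p = 0.0909 and 0.11). In the test within genes neither gain was called above the gene (edgeR adjusted p = 0.0663 and 0.0941). The gain at 46.7 kb was not called without effector 1, effector 2 or naive 2 (edgeR adjusted p = 0.0523, 0.0637 and 0.0783), nor that at 59.6 kb without effector 2 or naive 1 (edgeR adjusted p = 0.182 and 0.267).

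The other 8 Id2 regions were called in no comparison. The farthest, 93.9 kb upstream (chr12:25188744-25191209), had a mean of 37.7 CPM per kb in naive libraries, against 58.1 at the start, with 89.9 and 96.0 CPM in naive, 114 and 94.1 in effector and 98.3 and 85.4 in memory libraries. Close to the gene, the region centred 3.26 kb past the start (chr12:25091930-25093737) had 66.0 and 52.5, 73.9 and 67.3, and 59.4 and 56.2 CPM, and the region 3.5 kb upstream (chr12:25098449-25100725) had 54.3 and 41.7, 47.4 and 36.6, and 54.3 and 43.7. Farther out, the region 21.9 kb upstream (chr12:25117381-25118577) had 8.96 and 10.5, 6.1 and 8.99, and 9.43 and 13.3 CPM, with effector and naive values overlapping. The regions 36.3, 69.3 and 79.1 kb upstream ranged over 2.24 to 3.41, 17.8 to 25.2 and 2.12 to 3.87 CPM over all libraries, with groups overlapping in each. The next protein-coding gene from the 10 regions was Kidins220, 28.8 kb or more away.

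Id1, the third Id gene measured, had a region beside the one over the gene. It was centred 5.93 kb above the gene's lower end (chr2:152741444-152742923) and had 7.92 and 5.99 CPM in naive, 8.95 and 8.93 in effector and 6.43 and 4.53 in memory libraries. Effector libraries were highest and naive and memory libraries overlapped. Memory minus effector was −0.72 ± 0.27 on the log2 scale and was not called (edgeR adjusted p = 0.0682).

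Tcf12, the E protein gene for HEB, had 5 of its 12 tested regions called higher in effector than naive, beside 11.5% of all regions. All 5 lay inside the gene, and all but the one 11.1 kb from the start lay in the 2 lowest classes of mean count. In those classes 17.0% and 14.3% of all regions were called higher. The tables used do not mark exons and introns. Farthest from the start, 169 kb into the gene (chr9:71942473-71942932), values were 0.8 and 0.763 CPM in naive, 4.35 and 2.4 in effector and 0.529 and 0.738 in memory libraries. At 35.5 kb (chr9:72076053-72076831) they were 1.44 and 1.94, 4.61 and 3.78, and 0.441 and 1.03 CPM. At 33.6 kb (chr9:72078076-72078609) they were 0.08 and 0.352, 2.01 and 1.32, and 0.0881 and 0.148 CPM. Effector libraries stood above the other 4 in each, and memory libraries were below or among the naive ones. Effector minus naive was 2.10 ± 0.49, 1.29 ± 0.42 and 2.80 ± 0.75 on the log2 scale (edgeR adjusted p = 0.0074, 0.0437 and 0.0164). Memory minus effector was −2.36 ± 0.50, −2.40 ± 0.46 and −3.65 ± 0.82 (edgeR adjusted p = 0.0033, 0.00148 and 0.00491).

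The other gains of Tcf12 lay nearer its start and had no called loss in memory cells. At 22.7 kb (chr9:72088711-72089772) values were 0.64 and 0.822 CPM in naive, 2.4 and 2.06 in effector and 0.705 and 0.984 in memory libraries. At 11.1 kb (chr9:72099788-72101756), the Tcf12 region with the highest mean count, they were 15.6 and 15.4, 25.2 and 21.8, and 20.1 and 19.4 CPM. Memory libraries lay between the other groups at 11.1 kb and overlapped the naive ones at 22.7 kb. The gains were 1.58 ± 0.51 and 0.60 ± 0.17 on the log2 scale (edgeR adjusted p = 0.0415 and 0.0267), and memory minus effector was −1.36 and −0.25 (edgeR adjusted p = 0.0596 and 0.33). The start itself (chr9:72110499-72112545) had 20.5 and 20.3, 19.9 and 18.8, and 13.9 and 19.9 CPM, with memory 1 apart below.

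Single libraries carried several Tcf12 calls. Without effector 1 the edgeR adjusted p of the gains was 0.182 at 169 kb, 0.256 at 35.5 kb, 0.215 at 33.6 kb, 0.236 at 22.7 kb and 0.214 at 11.1 kb. Without effector 2 it was 0.0937 at 35.5 kb, 0.0521 at 33.6 kb and 0.112 at 22.7 kb. Without naive 1 it was 0.216 at 35.5 kb, 0.126 at 33.6 kb, 0.184 at 22.7 kb and 0.128 at 11.1 kb, and without naive 2 it was 0.085 at 35.5 kb, 0.101 at 22.7 kb and 0.116 at 11.1 kb. At 35.5, 33.6 and 22.7 kb the adjusted p of the gains was 0.11, 0.0545 and 0.126 with DESeq2 and 0.107, 0.118 and 0.183 with edgeR and a loess offset on abundance. The losses at 169 and 33.6 kb had an edgeR adjusted p of 0.0972 and 0.0937 without effector 1. The 5 regions held 28.3 and 29.3% of the Tcf12 counts in naive and 46.1 and 40.0% in effector libraries. In memory libraries they held 40.9 and 32.2%, which overlapped the effector values. The test within genes called the gains at 169 and 33.6 kb above the gene (edgeR adjusted p = 0.0291 and 0.022). It did not call those at 35.5, 22.7 and 11.1 kb (edgeR adjusted p = 0.23, 0.198 and 0.602).

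**Figure D5:**
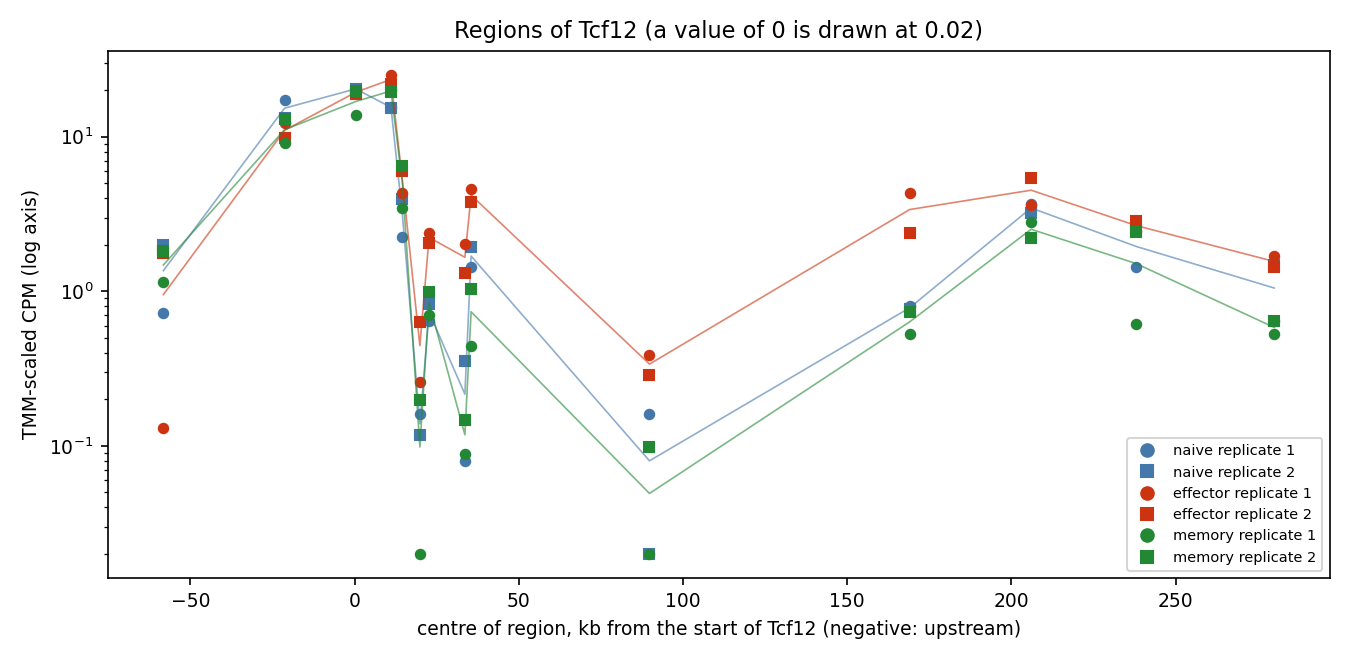
TMM-scaled CPM (log axis, 0 drawn at 0.02) of the 14 regions of Tcf12 against the distance of the centre from the start in kb, with points for libraries and lines joining group means. Effector points lie above the others at 11.1 kb, from 22.7 to 35.5 kb and at 169 kb. At the start effector and memory points overlap, and both naive points lie above them.

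The 7 tested Tcf12 regions with no call had effector minus naive differences from −0.51 to 0.72 on the log2 scale. The most covered of them outside the gene, 21.3 kb upstream (chr9:72132320-72134059), had 17.4 and 13.2 CPM in naive, 12.3 and 9.79 in effector and 9.08 and 13.1 in memory libraries. The 3 remaining member regions were too thinly covered to test, at 0 to 13 counts per library. They were the Tcf12 regions 89.8 and 19.9 kb into the gene and the Tcf3 region 9.2 kb upstream of its start.

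Tcf4, the gene of the E protein E2-2 that plasmacytoid dendritic cells require, went the other way at its covered regions. The region centred 250 kb above the lower end (chr18:69592336-69594416) had 34.2 and 28.5 CPM in naive, 25.2 and 20.6 in effector and 35.3 and 30.5 in memory libraries. The region just inside the lower end (chr18:69343879-69346112) had 44.0 and 43.9, 37.2 and 32.1, and 45.1 and 44.9 CPM. Effector libraries were lowest in both without overlap. Both regions lay in the highest class of mean count, where 14.8% of all regions were called lower in effector than naive. Memory minus effector was 0.52 ± 0.17 on the log2 scale at 250 kb and was called (edgeR adjusted p = 0.0346). The 0.38 near the lower end was not called (edgeR adjusted p = 0.0607). Effector minus naive was −0.45 and −0.34 and was called in neither (edgeR adjusted p = 0.0734 and 0.102). The gain at 250 kb was not called without effector 1, effector 2 or memory 1 (edgeR adjusted p = 0.0516, 0.209 and 0.168), nor with total counts alone, a loess offset or TMM on the 20% most covered regions (edgeR adjusted p = 0.0922, 0.161 and 0.254).

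At low counts Tcf4 differed within itself. The region centred 204 kb above the lower end (chr18:69547441-69548069) had 0.8 and 1.17 CPM in naive, 1.95 and 2.81 in effector and 1.67 and 0.591 in memory libraries, highest in effector libraries. Its own difference of 1.25 on the log2 scale was not called (edgeR adjusted p = 0.124), but it rose 1.58 above the gene's summed counts in the test within genes (edgeR adjusted p = 0.0421). The other 5 Tcf4 regions were called in no comparison, and none exceeded 10.1 CPM in a library. Tcf3 had a further tested region, 12.4 kb upstream of its start (chr10:80445800-80446900), with 6.8 and 7.57 CPM in naive, 5.06 and 7.62 in effector and 4.41 and 5.41 in memory libraries, and it was not called.

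From effector to memory, 1 member region rose and 6 fell of 40, beside 7.72% and 13.6% of all tested regions, and 17 had an unadjusted p under 0.05, beside 34.6%. The 6 losses were 3 regions each of Id3 and Tcf12, and the gain was in Tcf4. The split depended on the scaling. It was 0 higher and 10 lower with total counts alone and 0 higher and 13 lower with TMM on the 20% most covered regions. This comparison and effector minus naive use the same effector libraries, so they are not independent. Among all regions, losses too were more frequent at low counts, at 22.3% in the lowest class of mean count and 2.27% in the highest. Gains from effector to memory ran the other way, at 0.553% in the lowest class and 22.9% in the highest, which held the Tcf4 gain.

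No member region was called between memory and naive cells. Of 40 regions, 0 were called by edgeR and 0 by DESeq2, against 0.320% of all regions by edgeR, and 4 had an unadjusted p under 0.05, a share near the 9.90% of all regions. The largest difference was at the Id3 region 20.4 kb upstream, where both memory libraries lay below both naive ones with a log2 difference of −2.17 ± 0.60 (edgeR adjusted p = 0.157). At the Id3 regions 26.7 and 37.0 kb upstream it was −1.5 and −1.45 (edgeR adjusted p = 0.308 and 0.545). Counts in these 3 regions were 8 or fewer in each memory library and 22 or fewer in each naive library, which limits the precision.

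Summed over all regions of a gene, 1 of the 6 members was called, in 1 comparison. Id2 had 365 and 382 CPM in naive, 446 and 418 in effector and 401 and 384 in memory libraries, and Id3 had 60.7 and 57.6, 66.8 and 69.6, and 55.6 and 64.1. Tcf12 had 66.2 and 68.1, 89.6 and 83.8, and 53.9 and 70.8 CPM, and Tcf4 had 108 and 97.7, 90.2 and 81.4, and 107 and 94.1. Effector libraries were the highest for Id2, Id3 and Tcf12 and the lowest for Tcf4. From naive to effector edgeR and DESeq2 called 0 of the 6 genes, while edgeR called 10.6% of 15127 genes, and 3 members (Id2, Tcf4 and Tcf12) had an unadjusted p under 0.05. From effector to memory it called Tcf12, with a log2 difference of −0.47 ± 0.13 (edgeR adjusted p = 0.0321), beside 14.8% of all genes, and the call was lost without effector 1, effector 2 or memory 1 (edgeR adjusted p = 0.188, 0.0873 and 0.135). Id1 had 41.8 and 34.6, 44.6 and 38.6, and 36.5 and 30.6 CPM, and Tcf3 had 65.1 and 73.9, 66.5 and 69.7, and 62.4 and 77.0, with effector and naive libraries overlapping in both. Between memory and naive libraries edgeR and DESeq2 called 0 of the 6 genes, beside 0.198% of all genes by edgeR, and 0 had an unadjusted p under 0.05.

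Genes around the circuit were counted by lists. BMP signalling drives Id genes in many cell types. Of 110 tested regions of genes for BMP signalling and its regulators, 1 rose and 8 fell from naive to effector, beside 11.5% and 4.98% of all regions. Their median log2 difference was −0.09. A region 3.12 kb from Bmp2, a BMP ligand gene, fell from 29.2 ± 0.985 to 15.3 ± 3.38 CPM (SD, n = 2; log2 difference −0.93 ± 0.18, edgeR adjusted p = 0.002) and stood at 29.4 ± 3.0 in memory cells. A region in Bmp7, another ligand gene, fell from 27.6 ± 1.51 to 14.3 ± 3.85 (edgeR adjusted p = 0.00302, and 0.065 without effector 1). From effector to memory 10 regions of the list rose and 11 fell, beside 7.72% and 13.6% of all regions. A region in Bmpr1a, a BMP receptor gene, fell from 4.76 ± 0.397 to 1.4 ± 0.109 CPM (edgeR adjusted p = 0.00346). Smad5, a BMP signal transducer gene, had a region that rose from 64.6 ± 1.62 to 90.0 ± 3.07 CPM (edgeR adjusted p = 0.01). That call was lost without effector 1 or 2 (edgeR adjusted p = 0.0593 and 0.0624), with a loess offset (0.215) and with TMM on the 20% most covered regions (0.156).

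Of 54 tested regions of genes for other helix-loop-helix and adaptor partners of E proteins, 3 rose and 1 fell from naive to effector, and 2 rose and 5 fell from effector to memory. Over all regions the shares were 11.5% and 4.98%, and 7.72% and 13.6%. A region 5.16 kb from Msc, whose product musculin pairs with E proteins, had 0.352 ± 0.498 CPM in naive, 5.4 ± 3.19 in effector and 0.432 ± 0.262 in memory libraries. Its gain was called (log2 difference 3.76 ± 0.79, edgeR adjusted p = 0.00796) but not without effector 1 (edgeR adjusted p = 0.0807) or with DESeq2 (adjusted p = 0.0854).

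Genes known as E protein targets in lymphocytes had 185 tested regions, of which 23 rose and 5 fell from naive to effector and 9 rose and 39 fell from effector to memory. All regions gave 11.5% and 4.98%, and 7.72% and 13.6%, so the share of gains in effector cells was near the background. The medians were 0.08 and −0.22 on the log2 scale, against 0.00 and −0.04 over all regions. A region in Foxp1, a forkhead factor gene, rose from 4.24 ± 1.35 to 16.7 ± 0.422 CPM and stood at 4.23 ± 2.37 in memory cells (effector minus naive, edgeR adjusted p = 0.000811). A region in Cxcr5, a chemokine receptor gene, rose from 9.61 ± 0.116 to 23.2 ± 8.16 (edgeR adjusted p = 0.00138, and 0.0651 without effector 1). A region 10.7 kb from Socs1, which encodes an inhibitor of cytokine signalling, fell from 74.2 ± 2.61 to 47.5 ± 1.14 (edgeR adjusted p = 0.00192). Next to Ccr9, another chemokine receptor gene, a region fell from 9.6 ± 2.57 in effector to 1.64 ± 0.325 CPM in memory cells (edgeR adjusted p = 0.000104).

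Factors that act upstream of or beside Id2 in innate lymphoid precursors had 259 tested regions, of which 37 rose and 7 fell from naive to effector, beside 11.5% and 4.98% of all regions. A region in Tcf7, which encodes TCF-1, rose from 6.43 ± 0.375 to 26.7 ± 2.18 CPM and stood at 7.42 ± 0.645 in memory cells (effector minus naive, edgeR adjusted p = 1.16e-05). A region 7.32 kb from Ets1 rose from 3.4 ± 0.171 to 18.5 ± 5.85 (edgeR adjusted p = 3.21e-05), and one in Rora, a nuclear receptor gene of the ILC2 lineage, from 7.53 ± 0.806 to 23.0 ± 6.42 (edgeR adjusted p = 0.000214). From effector to memory 20 regions of the list rose and 29 fell, shares near or below the 7.72% and 13.6% of all regions. A region in Zbtb16, which encodes PLZF of innate lymphoid precursors, fell from 5.76 ± 0.207 to 0.718 ± 0.516 CPM (edgeR adjusted p = 0.000577). Memory minus naive gave 1 call over the 4 lists, another region in Tcf7, at 10.7 ± 0.125 CPM in naive and 24.1 ± 5.36 in memory libraries (edgeR adjusted p = 0.0216, and 0.158, 0.082 and 0.365 without naive 1, naive 2 or memory 2).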

How the data were processed

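The authors deposited raw counts per region for 6 ATAC-seq libraries on mm10. The submitters' processing notes list edgeR 3.34.0, deepTools 3.5.4, ChIPseeker 1.28.3, MACS2, bedtools 2.31.1, fastp and Bowtie2 2.5.3. How regions were merged, the unit counted and the base of the coordinates (0 or 1) were not given in the sources used here.

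Regions were assigned to 21900 protein-coding RefSeq genes, and 54123 received one. edgeR 4.0.16 (R 4.3.3) was run on all regions with filterByExpr, TMM, 1 term per group and robust quasi-likelihood F tests, two-sided, and tested on simulated data. The same was run on counts summed per gene. P-values were adjusted by Benjamini-Hochberg over all tested regions or genes. SE is the log2 difference over the square root of F. CPM is the count scaled to effective library size. Alternatives included DESeq2 1.42.0, other scalings and left-out libraries.

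The text names every region of the Id genes, start regions, called E protein regions and up to 4 called genes per list and comparison with the smallest adjusted p, of which some are given by count. Members and lists were chosen with earlier results of these data known. Libraries are separate pools of mice, and intervals cover counting error only.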

Additional observations from a re-analysis of the deposited data

How the results depend on the processing

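Of 10 member regions called higher in effector than naive, 5 were called with DESeq2 and 2 at an adjusted p under 0.01. There were 5 when regions had to overlap the gene and 6 with a limit of 20 kb. The test within genes called 5 member regions above their gene, among them the Tcf4 region at 204 kb, which is not among the 10. Leaving out single libraries gave 2 to 10. For memory minus effector, the 1 gain became 2 with RLE size factors and 0 with total counts, the loess offset, TMM on the 20% most covered regions, a minimum change of 2-fold, an adjusted p under 0.01 and the test within genes, and 0 to 1 with single libraries left out. The 6 losses became 10 with total counts, 13 with TMM on the 20% most covered regions and 3 among regions overlapping the gene. For summed counts, the effector minus naive gains of 0 became 1 with TMM on the 20% most covered regions and with only the 2 groups compared, and 0 to 1 with single libraries left out. The 1 Tcf12 loss from effector to memory became 0 to 1. Relative to TMM, TMM on the 20% most covered regions moved the median of all regions by 0.19 (effector minus naive) and −0.24 (memory minus effector), and total counts by 0.09 and −0.12 on the log2 scale.

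The replicate numbers mark nothing stated, and deviations of same-numbered libraries correlated at 0.19 to 0.27 over regions. With the replicate number as a block, 2 member regions were called lower in effector than naive. Both were in Tcf4, near its lower end and 250 kb above that end. In memory against effector, 3 member regions were called higher and 12 lower. For summed counts the block called 2 genes higher and 1 lower in effector than naive, and 1 higher and 2 lower in memory than effector.

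Of 2056 values of single regions and genes under alternatives, 1963 kept their side of the threshold, 53 lost and 40 gained a call, and 0 called values changed sign. Most of these values were not called by the main fit and had no call to lose. The gains called from naive to effector were kept in 7 to 15 of 15 alternative fits, depending on the region. Signs changed in 132 values called under neither setting. The causes were not tested. Depth limits the regions at a few counts.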

Other observations

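Genes with the closest profile to each member were sought by Euclidean distance between log2 CPM of summed counts (pseudocount 0.5), centred over the 6 libraries, among 6709 genes with at least 3 regions. Tcf4 lay nearest to Gm5785 at 0.0377, Klf13 at 0.0387 and Socs1 at 0.0454. Id2 lay nearest to S100a3 at 0.0576, Capn2 at 0.0639 and Ets1 at 0.0685. The nearest gene to Id3 was Ccdc85c at 0.0568, to Tcf3 it was Sh3bp2 at 0.0592, to Tcf12 it was Nlrp12 at 0.0806 and to Id1 it was Epb41l2 at 0.0921. These distances describe 6 libraries in 3 groups and carry no test.

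The share of counts outside the start or lower-end region differed between genes. It was 46.2 and 50.1% for Id3 in naive, 62.3 and 59.7% in effector and 43.8 and 49.6% in memory libraries. For Tcf12 it was 68.7 and 69.3%, 76.2 and 75.9%, and 73.9 and 71.2%. For Tcf3 it was 11 and 10.6%, 8.89 and 12.8%, and 7.12 and 7.32%, and for Id1 19.1 and 17.9%, 21.5 and 24.8%, and 17.8 and 15.1%.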
